A study of Mus musculus with 22 samples.

Results

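The 35 genes described here drive and carry out cell division, and they were chosen by name as genes of the mitotic cell cycle, from the proliferation marker Mki67 and the cyclins to the proteins of the spindle, the kinetochore and the cleavage furrow. All 35 were found among the 52526 gene symbols of the expression files. Of these, 34 passed the filter on low values that all tests used, as did 15138 genes in all. The RNA came from the left 4th mammary fat pad of 22 female C57BL/6J mice, 7 to 8 weeks old at the start, each engrafted with EO771 cells, a mammary cancer line of the same strain that had been made to express firefly luciferase. Mice lived with a running wheel for 2 weeks and the 24 hours after engraftment, or with the hub of the wheel alone as controls, and received intravenous liposomes 24 hours before engraftment and again at engraftment. The liposomes carried either clodronate, which kills the phagocytes that swallow it, or PBS as the control. Tissue was taken 24 hours after engraftment. The 4 groups held 6 control PBS mice, 6 wheel PBS mice, 5 control clodronate mice and 5 wheel clodronate mice, all labelled as 1 experiment. Each library is 1 mouse, and the tissue was lysed whole, with the engrafted cells and the cells of the host gland in 1 lysate, so RNA of the cancer cells and of dividing host cells cannot be told apart.

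Cells that enter mitosis build up cyclin B and cyclin A, which switch on the kinase CDK1, and the Aurora and Polo kinases then prepare the spindle. A checkpoint holds the chromosomes until each kinetochore is attached, after which the anaphase-promoting complex marks cyclin B for destruction and the cell divides. The RNA of most of these genes is made in the G2 and M phases, so that their combined level in a tissue follows the share of cells that are dividing. In whole tissue, fewer dividing cells and less RNA per dividing cell cannot be told apart.

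Many genes of this class are known to share a promoter element, the cell cycle genes homology region or CHR, through which the DREAM and MuvB complexes silence them in resting cells, together with CCAAT boxes that bind the factor NF-Y. RefSeq promoters of the GRCm38.p6 build, from 250 bases before to 50 bases after the start of a transcript, were at hand for 30 of the 35 genes, in 33 promoters. The stretches below are the 120 bases just before the start, 5′ to 3′, with CHR letters (TTTGAA on either strand) and CCAAT letters (on either strand) in capitals. The first 5 are those that hold a CHR match among the 15 stretches outside annotated exons. Cenpf, Ccnb2 and Birc5 are shown beside them, with CCAAT matches only or with neither motif in these bases. Cenpf and Ccnb2 do hold TTTGAA outside the printed bases. Counted from the start, it lies at position 2 in Cenpf and at 4 and -167 in Ccnb2.
Top2a, chr11:99024190-99024309, minus strand: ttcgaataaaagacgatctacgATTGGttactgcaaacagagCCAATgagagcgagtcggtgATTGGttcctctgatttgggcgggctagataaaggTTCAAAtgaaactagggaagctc
Mki67, chr7:135716380-135716499, minus strand: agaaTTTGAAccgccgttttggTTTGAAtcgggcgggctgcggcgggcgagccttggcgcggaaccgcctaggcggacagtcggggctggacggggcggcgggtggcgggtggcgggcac
Kif11, chr19:37376262-37376381, plus strand: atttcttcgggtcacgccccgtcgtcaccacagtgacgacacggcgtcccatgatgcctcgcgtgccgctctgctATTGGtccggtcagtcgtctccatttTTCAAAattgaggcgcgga
Ect2, chr3:27153879-27153998, minus strand: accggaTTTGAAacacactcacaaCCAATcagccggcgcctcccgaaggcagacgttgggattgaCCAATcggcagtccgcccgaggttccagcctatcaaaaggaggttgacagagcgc
Cdkn3, chr14:46760421-46760540, plus strand: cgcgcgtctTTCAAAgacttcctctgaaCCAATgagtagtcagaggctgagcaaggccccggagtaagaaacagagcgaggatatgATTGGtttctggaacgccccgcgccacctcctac
Cenpf, chr1:189688087-189688206, minus strand: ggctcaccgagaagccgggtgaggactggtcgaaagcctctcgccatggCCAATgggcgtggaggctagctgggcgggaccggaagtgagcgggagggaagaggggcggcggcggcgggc
Ccnb2, chr9:70421555-70421674, minus strand: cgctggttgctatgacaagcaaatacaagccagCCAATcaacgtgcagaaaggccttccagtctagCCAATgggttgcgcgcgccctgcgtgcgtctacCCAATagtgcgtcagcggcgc
Birc5, chr11:117849117-117849236, plus strand: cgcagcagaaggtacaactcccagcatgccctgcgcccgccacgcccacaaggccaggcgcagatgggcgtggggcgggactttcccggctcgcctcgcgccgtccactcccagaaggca

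The Top2a stretch held 3 CCAAT matches and 1 CHR match, the latter on the opposite strand and close to the start. The Mki67 stretch held 2 CHR matches and no CCAAT, and the Birc5 stretch held neither. Over the whole promoter, TTTGAA was present in 21 of 30 genes, or 70.0%, against 20.2% of the 27025 genes with a promoter in the same table. CCAAT was present in 24 of 30 (80.0%, against 41.1%), and both motifs in 19 of 30 (63.3%, against 7.97%). Within 60 bases of the start, TTTGAA was found in 63.3% of the 30 genes and in 6.36% of all genes. Counted from the start, with bases before it negative, the median position of its 31 matches was -15 and that of the 68 CCAAT matches -76.5.

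The genes of DNA replication, which are made earlier in the cycle, held these letters at other shares. Of 38 such genes with a promoter, 21.1% held TTTGAA, close to the share of all genes, while 39.5% held an E2F-like motif (TTTGGCG or TTTCGCG, either strand), against 6.67% of the mitotic genes and 2.68% of all genes. The core of the cell cycle-dependent element (GGCGC, either strand) was frequent in both, at 70.0% of the mitotic genes and 86.8% of the replication genes, with 39.4% over all genes. CCAAT was also frequent in both, at 80.0% of the mitotic genes and 60.5% of the replication genes, with 41.1% over all genes. Of 53 other mitotic genes with a promoter, 64.2% held TTTGAA and 69.8% CCAAT. The E2F-like motif can share most of its letters with a GGCGC match, and TTTGAA and CCAAT can share an end base. The 9 genes without TTTGAA were Nuf2, Nusap1, Bub1, Psrc1, Cenpe, Mad2l1, Birc5, Cks2 and Ccnb1. A match of letters is a description of this window and not a site of binding.

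**Figure D1:**
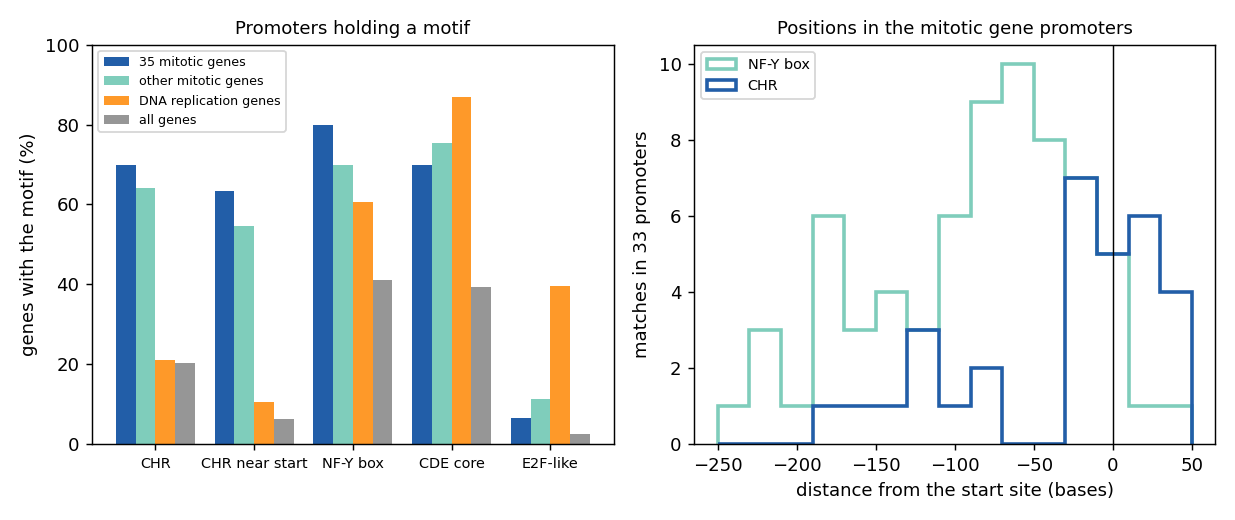
The percent of genes whose promoter holds each motif, for the 30 mitotic genes with a promoter, other mitotic genes, DNA replication genes and all 27025 genes in the table (NF-Y box stands for CCAAT), and on the right the distance of each match from the start site in the 33 mitotic gene promoters. CHR matches were in 70.0% of mitotic genes and 20.2% of all genes, and they gathered about the start.

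Levels are given as deposited, in CPM, which is a gene's reads relative to all reads of the library and scaled to the same total in every mouse, and a gene below 1 CPM in a mouse was set by the authors to a floor of 1. The libraries were made from the 3′ ends of transcripts, about 1 tag per transcript whatever its length, so that levels were compared between genes without division by length. The libraries held 13256467 to 20484578 reads, and the floor of 1 CPM stood for at most 13 to 20 reads. Of the 35 genes, 7 were above the floor in all 22 mice, 10 had a median of at least 10 CPM and 5 were at the floor in 11 or more mice.

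Top2a, the topoisomerase that untangles sister chromosomes, had the highest level, with a median of 47.0 CPM and a range of 3.30 to 131 CPM. It was the leading gene of the 35 in 16 of 22 mice. Cks1b, a small partner of the cyclin-dependent kinases, came next at a median of 25.8 CPM and led in the other 6 mice. Its range, 7.29 to 56.9 CPM, was narrower. Cenpf, a kinetochore protein, followed at a median of 17.4 CPM, Ube2c, which passes ubiquitin to the targets of the anaphase-promoting complex, at 14.2 CPM, and Birc5, a subunit of the chromosomal passenger complex, at 12.5 CPM. These neighbours in the order overlapped widely in range. At the other end, Cks2, the close relative of Cks1b, was at the floor in 20 of 22 mice, with 1.16 CPM in control PBS mouse 2 and 1.05 CPM in control clodronate mouse 3, and it was the gene left out of the tests. The 3′ ends of some transcripts match other genes, which can take part of the reads. The last 400 bases of Ccnb1 matched 4 other genes at 97% identity or more, over 73.5% of their length at most, and those of Cks2 matched 3 over 32.3%, while 27 of the 35 genes had no such match.

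Mice of the same group differed widely in these genes. Their summed level ran from 73.1 CPM in control PBS mouse 5 to 756 CPM in wheel PBS mouse 4. Within the control PBS group it ran from 73.1 to 744 CPM with a median of 493 CPM, and within the wheel PBS group from 88.9 to 756 CPM with a median of 226 CPM. The 5 control clodronate mice had 111, 321, 480, 78.9 and 331 CPM, and the 5 wheel clodronate mice 165, 135, 472, 283 and 357 CPM. Every group thus held mice with low and with high levels, and the 4 ranges overlapped. The number of the 35 genes above the floor went from 12 in control PBS mouse 5 to 34 in 5 mice.

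**Figure D2:**
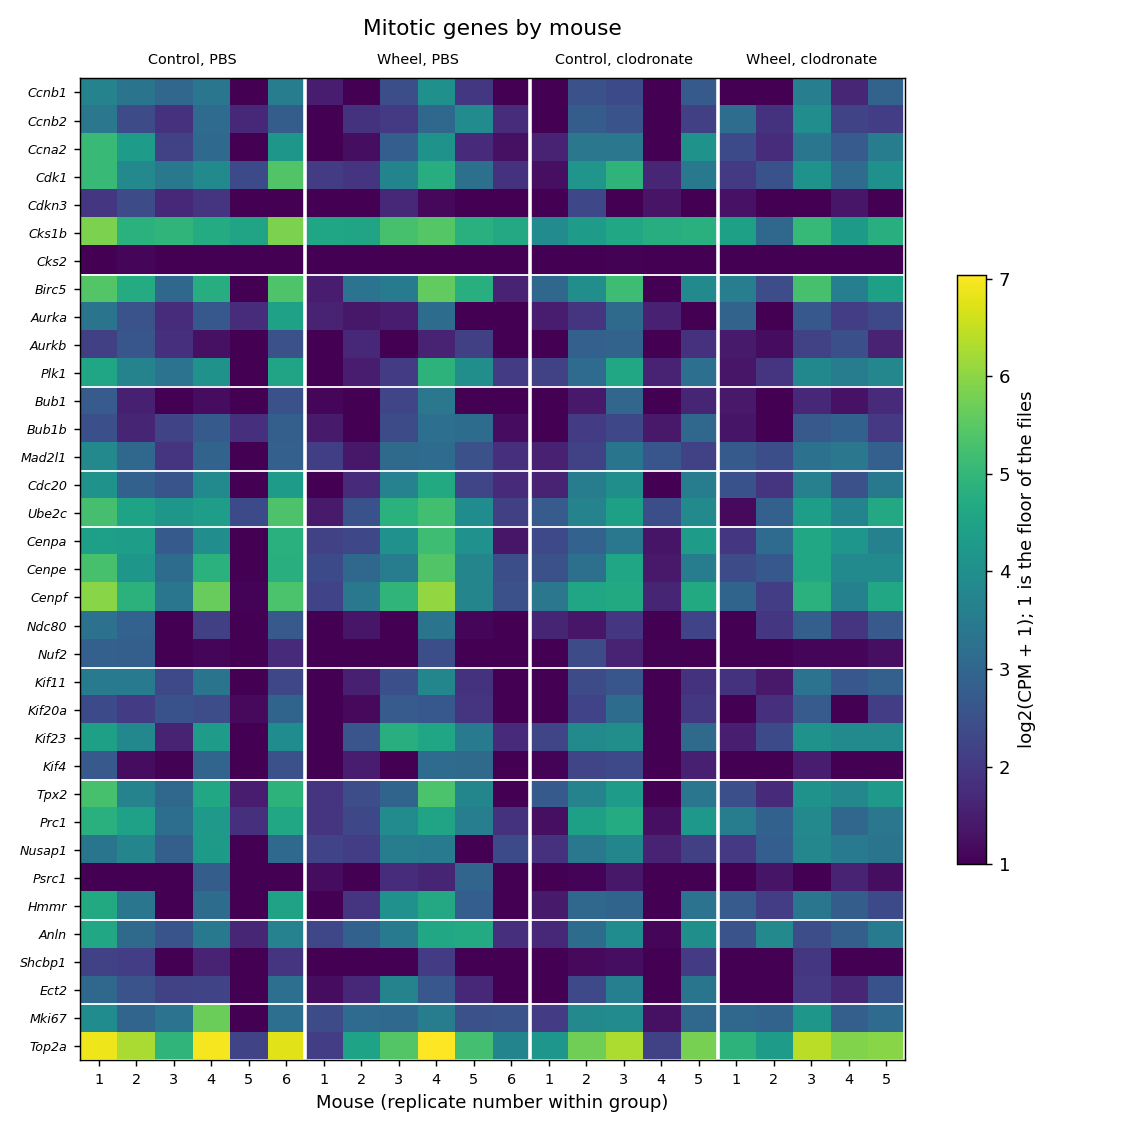
Level of the 35 mitotic genes (rows, grouped by role between white lines) in each of the 22 mice (columns), as log2(CPM + 1), where 1 is the floor of the files. Control PBS mice 1, 4 and 6 and wheel PBS mouse 4 have the highest sums, and control PBS mouse 5 and control clodronate mouse 4 have the fewest genes above the floor, 12 and 17 of 35.

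On the log2(CPM + 1) scale the standard deviation within groups had a median of 1.00 over the 34 tested genes, against 0.46 over all 15138 genes. Of the 34, 23 were among the 10% of genes with the widest spread. Top2a had the widest, at 1.59, followed by Birc5 at 1.54 and Cenpf at 1.5. Cks1b, at 0.55, and Cdkn3, a phosphatase that acts on cyclin-dependent kinases, at 0.43, were far lower. Genes near the floor, such as Cdkn3 and Shcbp1, can vary only upwards, which bounds their spread.

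The genes moved together from mouse to mouse. Each gene's deviation from its group mean was set against the mean deviation of the other 33, over the 22 mice. The correlation had a median of 0.83, and 32 of 34 genes were above 0.5, as were 8.60% of the 15104 other genes. Values came from the same libraries, which is a source of likeness they share. Cenpe, the kinesin that moves chromosomes to the spindle equator, had the highest value at 0.97, followed by Cenpf at 0.96, Cdc20, the activator of the anaphase-promoting complex, at 0.96, and Top2a at 0.95. The exceptions were Cdkn3 at 0.27 and Psrc1, a microtubule-binding protein, at 0.30, both at the floor in about as many mice as not. Nuf2 and Shcbp1, at the floor about as often, stood at 0.62 and 0.71. Cks1b, at 0.63, Aurka, at 0.63, Aurkb, at 0.65, and Mki67, at 0.72, followed the rest less closely. Nusap1, Bub1b and Ccnb2 stood close to Mki67, at 0.72, 0.72 and 0.73. Among the 30 genes with a promoter, the median was 0.88 for the 21 with TTTGAA and 0.79 for the 8 tested genes without it, and the ranges overlapped. The sets also differed in level. The median of the genes' mean CPM was 9.55 for the 21 and 5.17 for the 9 without TTTGAA, Cks2 included. The part of level in this difference was not tested.

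Mki67, the usual protein marker of dividing cells, illustrates the looser tie. It was at 50.8 CPM in control PBS mouse 4 and at no more than 17.5 CPM in any other mouse. The control PBS group ran from the floor to 50.8 CPM with a median of 8.57 CPM, and the wheel PBS group from 4.31 to 10.9 CPM with a median of 6.09 CPM. The control clodronate mice had 3.12, 13.4, 14.2, 1.42 and 7.17 CPM and the wheel clodronate mice 7.23, 6.59, 17.5, 6.07 and 7.62 CPM. Over the 21 mice with Mki67 above the floor, the ratio of Top2a to Mki67 ran from 0.77 to 12.9, with a median of 5.44.

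The cyclins and CDK1 partners were summed over 7 genes, from 20.1 CPM in wheel clodronate mouse 2 to 148 CPM in control PBS mouse 1. Cdk1, the kinase that starts mitosis, had a median of 9.79 CPM and was above the floor in all mice, with a highest value of 41.1 CPM in control PBS mouse 6. Cyclin A2 (Ccna2), which acts from S phase into early mitosis, had a median of 5.83 CPM, cyclin B1 (Ccnb1) of 4.27 CPM and cyclin B2 (Ccnb2) of 3.55 CPM. The cyclins were each at the floor in 3 to 7 of the 22 mice. Cdkn3, with a median of 1.01 CPM, was at the floor in 11.

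The 4 genes of the mitotic kinases and the chromosomal passenger complex summed to between 5.42 CPM in control PBS mouse 5 and 88.6 CPM in control PBS mouse 6. Birc5, or survivin, and Plk1, the Polo kinase, were the more abundant of them, with medians of 12.5 and 8.57 CPM, and Aurka and Aurkb the less abundant, with 2.61 and 2.13 CPM. Among the genes of the spindle checkpoint, Mad2l1 had a median of 5.32 CPM, Bub1b of 3.48 CPM and Bub1 of 1.55 CPM. Ube2c and Cdc20, the partners of the anaphase-promoting complex, had medians of 14.2 and 5.69 CPM, and Cdc20 was at the floor in 3 mice.

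The 5 centromere and kinetochore genes summed to between 5.09 CPM in control PBS mouse 5, barely above the floor, and 155 CPM in wheel PBS mouse 4. Cenpa, the histone that marks the centromere, had a median of 10.6 CPM and Cenpe of 10.8 CPM. Ndc80 and Nuf2, which hold microtubules within one complex, were far lower, with medians of 2.45 and 1.03 CPM. The 4 kinesins ran from 4.00 CPM, the floor for all 4, in control clodronate mouse 4 to 48.5 CPM in wheel PBS mouse 4. Kif23, which bundles the central spindle, had a median of 11.8 CPM, Kif11, which pushes the poles apart, of 3.98 CPM, Kif20a, a motor of cytokinesis, of 3.02 CPM and Kif4 of 1.18 CPM.

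Of the spindle microtubule proteins, Prc1, which crosslinks the midzone, and Tpx2, which activates Aurka, had medians of 10.8 and 10.6 CPM. Nusap1 followed at 6.78 CPM and Hmmr at 5.95 CPM, while the median of Psrc1 was the floor. Of the cytokinesis genes, Anln had a median of 7.65 CPM, Ect2 of 3.26 CPM and Shcbp1 of 1.00 CPM, since it was at the floor in 12 mice.

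Outside the 35, the genes most like their mean were sought over all genes tested. Ddx39, an RNA helicase, had a correlation of 0.96, followed by the condensin subunit Smc2 at 0.94, Nme1, a nucleoside diphosphate kinase, at 0.94, S100a4, a calcium-binding protein, at 0.93, and Racgap1, which acts with Kif23 in the cleavage furrow, at 0.93. The replication licensing factor Cdt1 and the cell surface receptor Cd44 both stood at 0.92, and the next were the RNA-binding protein Serbp1 at 0.92, the ribosome factor Eif6 at 0.91 and the histone chaperone Nasp at 0.91. As lists, the 64 other mitotic genes tested had a median of 0.75 and the 49 genes of DNA replication a median of 0.63.

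Markers of other cells were measured in the same mice. Of 12 adipocyte markers, 11 varied in the opposite direction to the mitotic genes, and the list had a median correlation of -0.62. Adiponectin (Adipoq) stood at -0.75 and the lipase Pnpla2 at -0.77. The summed adipocyte level ran from 15359 to 22865 CPM in control PBS mice, from 17107 to 24401 CPM in wheel PBS mice, from 9010 to 25156 CPM in control clodronate mice and from 13130 to 19661 CPM in wheel clodronate mice. No adipocyte marker was at the floor in any mouse. The part of tissue makeup in the spread of the mitotic genes was not tested. The 12 macrophage markers had a median of 0.35, the 16 mammary epithelial markers -0.22 and the 10 skeletal muscle markers 0.02. Of the 16 epithelial markers of the gland, 15, among them Krt8, Krt18, Krt5, Krt14 and Epcam, were above the floor in all 22 mice.

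Lymphocyte markers separated 5 mice from the rest. The mean log2(CPM + 1) of 12 such genes was 4.33 in control PBS mouse 2, 4.60 in wheel PBS mouse 3, and 5.62, 5.73 and 5.07 in wheel clodronate mice 3, 4 and 5. It was at most 1.38 in the other 17, where the floor gives 1. The summed level of these markers was 12.4 to 16.6 CPM in the other wheel PBS mice and reached 344 CPM in wheel PBS mouse 3. In control PBS mice it was 13.0 to 273 CPM, in control clodronate mice 12.9 to 23.1 CPM and in wheel clodronate mice 13.3 to 807 CPM. These 5 mice ranked 6th to 13th of 22 in summed mitotic level, and the 4 highest, control PBS mice 1, 4 and 6 and wheel PBS mouse 4, had lymphocyte values of 1.05 to 1.14. Without the 5 mice, the correlation of the mitotic genes with each other was as high for Cenpe, at 0.97, and Top2a, at 0.95. Because 3 of the 5 were wheel clodronate mice and the others were PBS mice, the comparisons of the mitotic genes are also given without them.

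**Figure D3:**
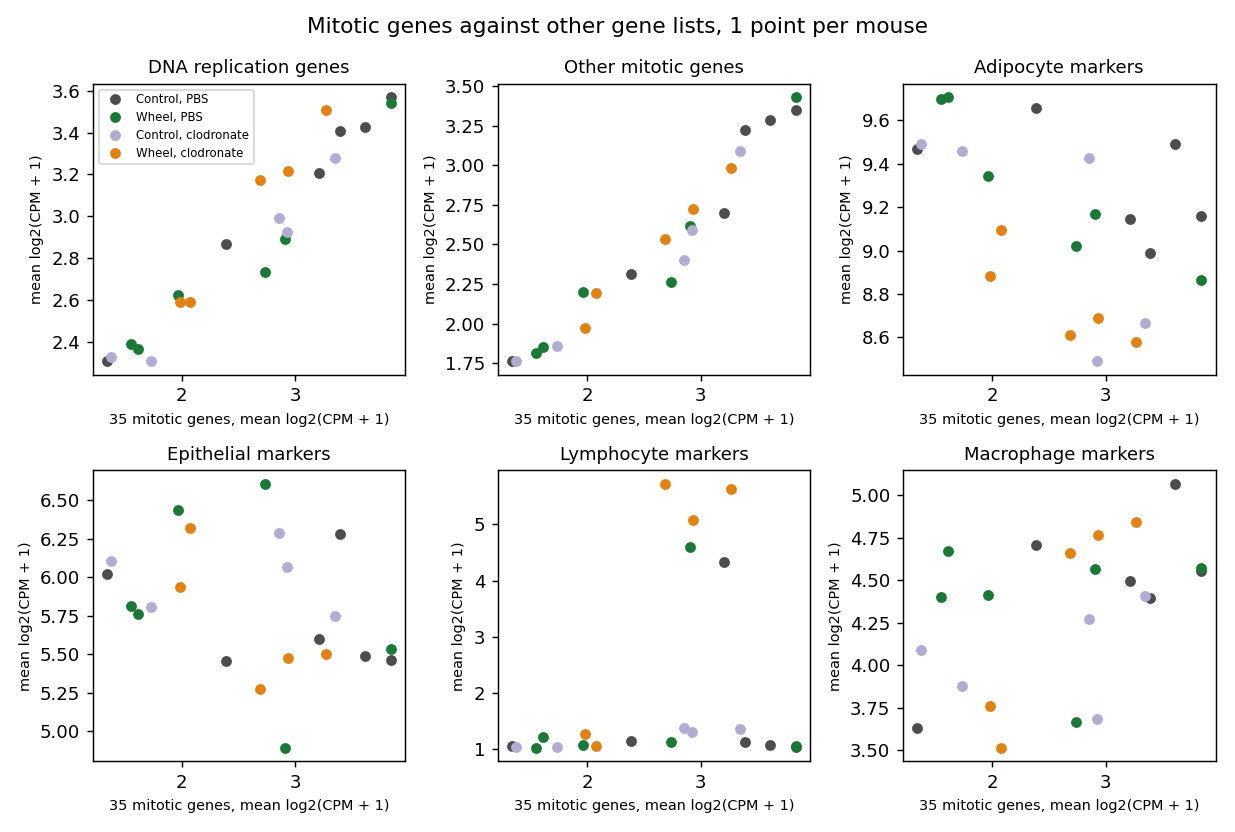
Mean log2(CPM + 1) of 6 gene lists (vertical axes) against that of the 35 mitotic genes (horizontal axes), with 1 point per mouse coloured by group. DNA replication and other mitotic genes rise with the 35, adipocyte markers tend the other way, and the 5 mice high in lymphocyte markers lie in the middle to upper part of the mitotic range.

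The first question of the design is whether wheel access altered these genes. With PBS liposomes, mitotic genes tended to be lower in wheel mice, with wide overlap, and none of the 34 passed the test (limma on log2(CPM + 1), adjusted p under 0.05), nor did any of the 15138 genes (0%). At an unadjusted p under 0.05, 2 of the 34 were lower, against 4.91% of all genes (4.12% lower and 0.799% higher). The median log2 difference, wheel minus control, was -0.50 over the 34 genes and -0.08 over all genes, and 32 of the 34 were lower in wheel mice, against 63.8% of all genes. The genes varied together within groups, so this count is not one of independent genes. All 10 skeletal muscle markers were also lower in wheel PBS mice, with a median log2 difference of -1.92 and none at an unadjusted p under 0.05, their summed level running from 30.9 to 3524 CPM in control and from 25.5 to 393 CPM in wheel mice, and their part in the result was not tested.

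Ccna2, or cyclin A2, had the largest difference. Its level ran from the floor to 32.5 CPM with a median of 12.3 CPM in control mice, and from the floor to 16.1 CPM with a median of 1.85 CPM in wheel mice. The ranges overlapped, although 4 of 6 wheel mice were below 2.5 CPM and 1 of 6 control mice was. The log2 difference was -1.28 (SE 0.66, adjusted p = 0.987). Aurka, the kinase that matures the spindle poles, ran from 2.42 to 21.1 CPM with a median of 5.10 CPM in control mice and from the floor to 7.85 CPM with a median of 1.72 CPM in wheel mice. All wheel mice but 1 were below every control mouse, the exception being wheel PBS mouse 4. Its log2 difference was -1.16 (SE 0.46, unadjusted p = 0.0195, adjusted p = 0.987). The other gene at an unadjusted p under 0.05 was Cdkn3, with a log2 difference of -0.52 (SE 0.24, limma, unadjusted p = 0.0411, adjusted p = 0.987). It was at the floor in 2 of 6 control and 3 of 6 wheel mice.

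Only Psrc1 and Anln had higher means in wheel mice. Anln, which binds actin and myosin in the cleavage furrow, ran from 2.13 to 23.1 CPM in control mice and from 2.5 to 25.0 CPM in wheel mice, a log2 difference of 0.12 (SE 0.57, adjusted p = 0.998). Psrc1 was above the floor in 1 of 6 control and 4 of 6 wheel mice, with a log2 difference of 0.30 (SE 0.31, adjusted p = 0.987). Top2a was lower by a log2 difference of -1.0 with an SE of 0.81, from a median of 91.7 CPM in control mice to 29.3 CPM in wheel mice.

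Single mice moved this comparison. Without control PBS mouse 5, the lowest mouse of all, the median of the 34 was -0.90 and 12 of them had an unadjusted p under 0.05, against 6.07% of all genes. Without wheel PBS mouse 4, the highest, 10 did, against 6.29%. Leaving out the lowest control mouse or the highest wheel mouse pushes the difference further below 0. Over all fits that left out 1 mouse, the median ran from -0.90 to -0.37. Without the 5 mice high in lymphocyte markers, among them control PBS mouse 2 and wheel PBS mouse 3, the median was -0.57 against -0.08 over all genes. There 32 of 34 were lower and 0 had an unadjusted p under 0.05. With upper-quartile scaling 1 of the 34 did. No gene of the 34 passed the adjusted threshold in any of these fits.

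**Figure D4:**
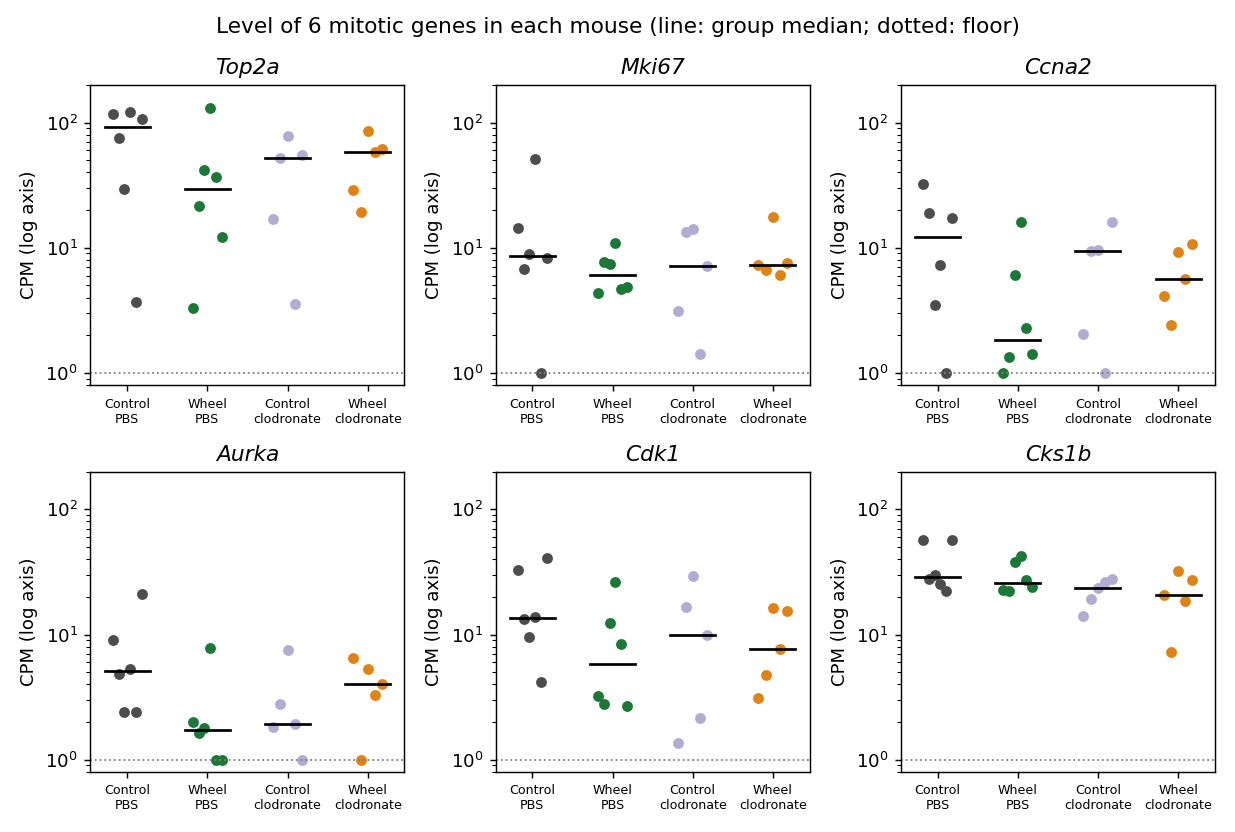
CPM (log axis) of 6 mitotic genes in each mouse of the 4 groups, with the group median as a line and the floor dotted. Within each group Top2a spans a wide range, for example 3.69 to 123 CPM in control PBS mice, whereas Cks1b lies between 7.29 and 56.9 CPM in all mice.

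With clodronate liposomes, the mitotic genes took no common direction between wheel and control mice. Of 34 genes, 22 had a higher mean in wheel mice and 12 a lower one, the median log2 difference was 0.13 against 0.00 over all genes, and none passed the test, while 0.00661% of all genes did. None of the 34 reached an unadjusted p under 0.05, against 10.4% of all genes (3.4% lower and 7.04% higher). Without the 5 mice high in lymphocyte markers, which leaves 2 wheel clodronate mice, the median turned to -0.41 with 26 of 34 lower. All 12 lymphocyte markers were higher in wheel mice here, each at an unadjusted p under 0.05 and none past the adjusted threshold, while all 10 muscle markers and 10 of 12 adipocyte markers were lower, with medians of -1.23 and -0.26. Their part in the result was not tested. Ccnb2, or cyclin B2, had the highest difference. Its level was 1.00, 5.91, 4.81, 1.00 and 3.39 CPM in control mice and 7.99, 2.69, 14.6, 3.71 and 3.30 CPM in wheel mice. The groups overlapped, with a log2 difference of 0.78 (SE 0.52, adjusted p = 0.662).

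Top2a was at 17.0, 52.4, 78.3, 3.58 and 55.1 CPM in control clodronate mice and at 28.9, 19.3, 85.1, 58.2 and 61.4 CPM in wheel clodronate mice. The log2 difference was 0.66 (SE 0.89, adjusted p = 0.871), and it was -0.22 without the 5 mice and -0.0028 without control clodronate mouse 4. Ect2, the exchange factor that switches on RhoA for the cleavage furrow, had the lowest difference, -0.62 (SE 0.56, adjusted p = 0.780). Its level was 1.00, 4.02, 11.2, 1.00 and 9.13 CPM in control mice and 1.00, 1.00, 2.98, 2.13 and 4.79 CPM in wheel mice. Kif4, a kinesin that binds chromosomes, was at the floor in 4 of 5 wheel mice and in 1 of 5 control mice, with a difference of -0.54 (SE 0.46, adjusted p = 0.767).

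The second question is what clodronate liposomes did. In control mice, 33 of 34 genes had a lower mean with clodronate, against 65.4% of all genes, and the median log2 difference, clodronate minus PBS, was -0.56 against -0.10 over all genes (-0.46 with upper-quartile scaling, which takes out the shift of all genes). None of the 34 passed the test, none of all genes did (0%), and none of the 34 reached an unadjusted p under 0.05, against 6.99% of all genes (6.08% lower and 0.905% higher). Without control PBS mouse 5 the median was -0.86 and 5 of the 34 were lower at an unadjusted p under 0.05, against 8.1% of all genes. That mouse was the lowest of its group, so its omission pushes these differences further below 0. Without the 5 mice high in lymphocyte markers, among them control PBS mouse 2, the median was -0.47. There 33 of 34 were lower, 1 of them at an unadjusted p under 0.05. With no control mouse left out, the 12 macrophage markers all had lower means with clodronate in control mice, with a median of -0.41 and 2 at an unadjusted p under 0.05. Their summed level was 223 to 533 CPM with PBS and 221 to 355 CPM with clodronate. All 10 muscle markers had higher means (median 1.14, none at that p). Lower means were found in 11 of 12 lymphocyte markers (median -0.42, none at that p) and 9 of 12 adipocyte markers (median -0.16, 1 at that p). The part of these markers in the result was not tested. This comparison and the wheel comparison with PBS liposomes share the control PBS mice, so a low or high mouse in that group moves both the same way. Ccnb1, or cyclin B1, ran from the floor to 12.1 CPM with a median of 9.19 CPM with PBS, and was at 1.00, 4.63, 4.12, 1.00 and 5.51 CPM with clodronate. The 5 clodronate mice lay below 5 of the 6 PBS mice. The log2 difference was -1.08 (SE 0.59, adjusted p = 0.739).

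Aurka was at 1.81, 2.80, 7.46, 1.92 and 1.00 CPM with clodronate, within or below the range with PBS given above, a log2 difference of -0.95 (SE 0.48, adjusted p = 0.724). Aurkb, the kinase of the passenger complex, was the single gene with a higher mean, by 0.04 (SE 0.38, adjusted p = 0.989), with levels from the floor to 5.18 CPM with PBS and of 1.00, 6.28, 6.56, 1.00 and 2.64 CPM with clodronate.

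In wheel mice, clodronate was accompanied by a higher mean in 22 of 34 genes and a lower one in 12. The median log2 difference was 0.17 against 0.00 over all genes, and none of the 34 passed the test (0.00661% of all genes). None had an unadjusted p under 0.05, against 11.6% of all genes (5.54% lower and 6.08% higher). Without the 5 mice the median was -0.25, with 24 of 34 lower. Markers of other cells differed as well. All 12 lymphocyte markers had higher means with clodronate (median 2.11, all 12 at an unadjusted p under 0.05), all 10 muscle markers had higher means (median 1.80, none at that p) and all 12 adipocyte markers lower ones (median -0.51, 5 at that p). Of the 12 macrophage markers, 8 had lower means in wheel mice and 4 higher ones (median -0.18, none at that p). The part of these markers in the result was not tested. Top2a was the highest, by 0.83 (SE 0.85, adjusted p = 0.778), with clodronate values as above and PBS values from 3.30 to 131 CPM, a range that takes in all 5. Ccna2 was at 4.13, 2.43, 9.30, 5.65 and 10.7 CPM with clodronate, a difference of 0.74 (SE 0.69, adjusted p = 0.747). Kif4, at -0.69 (SE 0.44, adjusted p = 0.591), and Cks1b, at -0.55 (SE 0.31, adjusted p = 0.517), were the lowest.

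**Figure D5:**
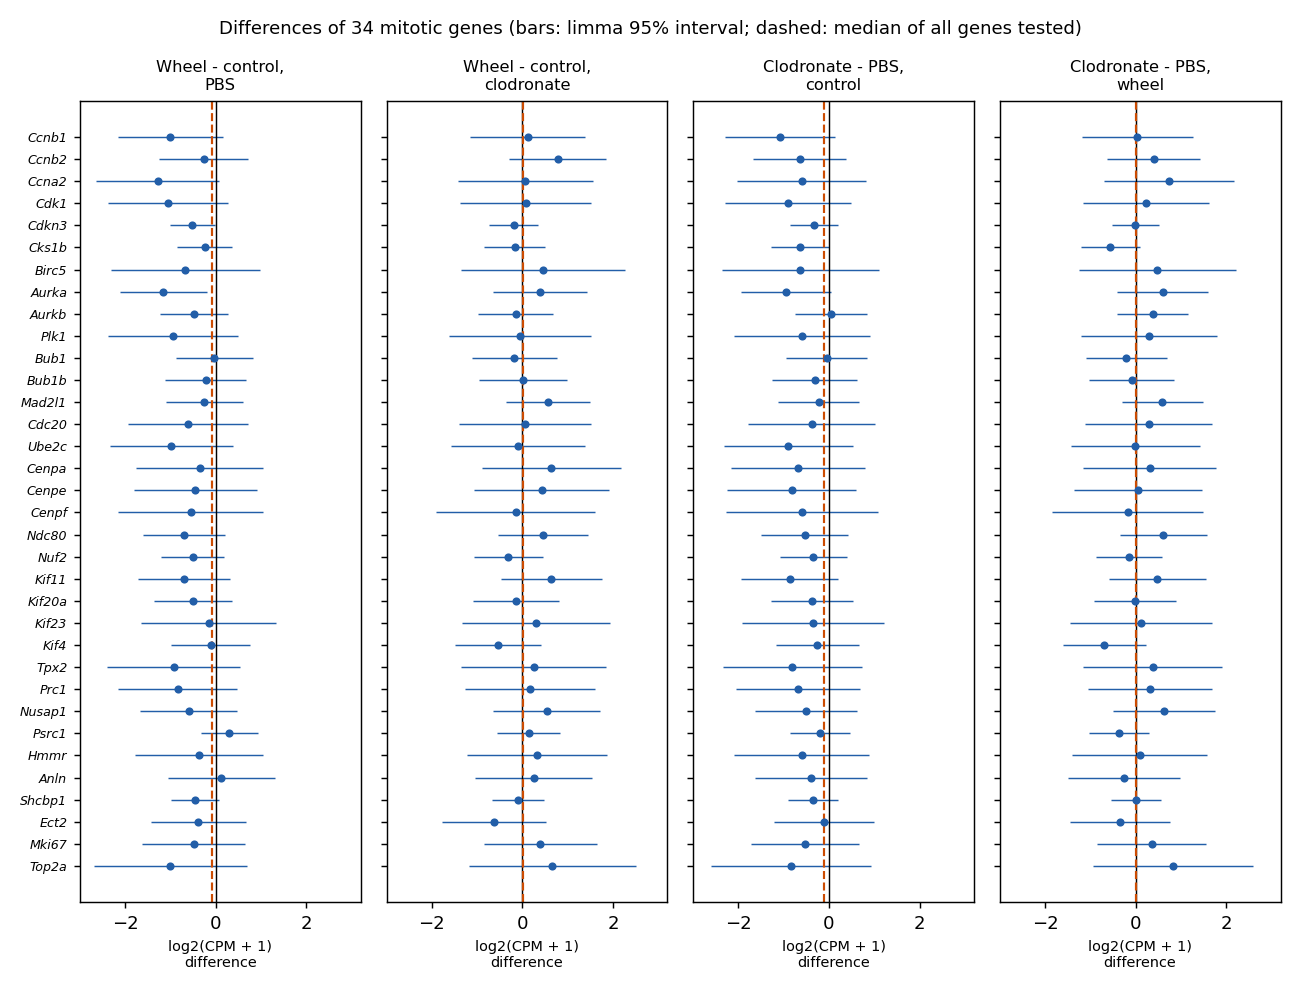
Difference in log2(CPM + 1) of the 34 tested mitotic genes in the 4 comparisons, as points with limma 95% intervals, the median of all 15138 genes dashed and 0 as a solid line. Of the 34 genes, 32 are below 0 for wheel against control with PBS and 33 for clodronate against PBS in control mice, and the intervals of Aurka and Cdkn3 in the first of these are the ones that do not reach 0.

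Cks1b was the one mitotic gene at an unadjusted p under 0.05 when the clodronate effect was averaged over both activities. Its level was 22.2 to 56.9 CPM in control PBS mice with a median of 28.9 CPM, and 22.1 to 42.6 CPM in wheel PBS mice with a median of 25.7 CPM. It was at 14.0, 19.3, 23.7, 26.2 and 27.5 CPM in control clodronate mice and at 20.7, 7.29, 32.0, 18.6 and 27.2 CPM in wheel clodronate mice. All 12 PBS mice were above 22 CPM, and 5 of the 10 clodronate mice were below it. The log2 difference was -0.59 (SE 0.22, unadjusted p = 0.0128, adjusted p = 0.308). The median over the 34 genes was -0.18 against -0.04 over all genes. No mitotic gene passed, against 0.205% of all genes, and 1 of 34 had an unadjusted p under 0.05, against 10.4% of all genes (8.3% lower and 2.13% higher). The median was -0.32 without the 5 mice. Of the 12 macrophage markers, 11 were lower with clodronate in this average, with a median of -0.20 and 2 at an unadjusted p under 0.05. All 12 adipocyte markers were lower, with a median of -0.38, and all 12 lymphocyte markers and all 10 muscle markers were higher, with medians of 0.90 and 1.52. The part of these markers in the result was not tested. Aurkb had the highest difference, 0.21 (SE 0.27, adjusted p = 0.821).

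Averaged over both liposomes, wheel mice differed from control mice by a median of -0.24 over the 34 genes and of -0.04 over all genes. No gene passed (0% of all genes), and none of the 34 had an unadjusted p under 0.05, against 8.09% of all genes (4.16% lower and 3.93% higher). The median was -0.45 without the 5 mice. All 12 lymphocyte markers were higher and all 10 muscle markers lower in wheel mice, with medians of 1.21 and -1.53, and their part in the result was not tested. Ccna2 was the lowest at -0.61 (SE 0.49, adjusted p = 0.767) and Ccnb2 the highest at 0.26 (SE 0.35, adjusted p = 0.873).

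The third question is whether the wheel difference depended on the liposome. The interaction, the wheel difference with clodronate minus that with PBS, was above 0 for 30 of 34 genes, with a median of 0.84 against 0.09 over all genes. No gene passed the test (0% of all genes), and 1 of the 34 had an unadjusted p under 0.05, against 7.58% of all genes (1.23% lower and 6.35% higher). That gene was Aurka, at 1.55 (SE 0.68, unadjusted p = 0.0331, adjusted p = 0.634). Top2a had the largest value, 1.66, with an SE of 1.21 (adjusted p = 0.792), and Kif4 the lowest, -0.43 (SE 0.63, adjusted p = 0.925). Without the 5 mice the median was 0.13 and 21 of 34 were above 0. Without control PBS mouse 5 the median was 1.18 and 5 of the 34 had an unadjusted p under 0.05, against 8.47% of all genes, and without wheel PBS mouse 4 the median was 1.11 and 3 did, against 8.71%. These are the lowest control PBS and the highest wheel PBS mouse, and omitting either pushes the interaction further above 0. All 12 lymphocyte markers were above 0 in the interaction (median 2.38, 5 at an unadjusted p under 0.05), as were all 10 muscle markers (median 0.71, none at that p), and 14 of 16 epithelial markers were below 0 (median -0.33, none at that p). Below 0 were also 10 of 12 adipocyte markers (median -0.33, 1 at that p), while 9 of 12 macrophage markers were above 0 (median 0.30, none at that p). The part of these markers in the result was not tested.

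The other genes of the cell cycle were read the same way. With PBS liposomes, 57 of 64 other mitotic genes and 43 of 49 genes of DNA replication had lower means in wheel mice, with medians of -0.45 and -0.41, against 63.8% of all genes lower and a median of -0.08. None passed the test, and 2 and 6 of them had an unadjusted p under 0.05, or 3.13% and 12.2%, against 4.91% of all genes. The 6 replication genes included Mcm5, a subunit of the replicative helicase, at -1.03 (SE 0.46, adjusted p = 0.987), and Pold2, a subunit of DNA polymerase delta, at -0.77 (SE 0.28, adjusted p = 0.987). For clodronate against PBS in control mice, 62 of the 64 and 45 of the 49 were lower, with medians of -0.40 and -0.38, against 65.4% of all genes lower and a median of -0.10. None passed, and 3 and 6 had an unadjusted p under 0.05, or 4.69% and 12.2%, against 6.99% of all genes. Foxm1, the transcription factor of the G2 and M program, differed there by -0.96 (SE 0.45, adjusted p = 0.697). In the interaction, 60 of 64 and 42 of 49 were above 0, with medians of 0.55 and 0.62, against 59.2% of all genes and a median of 0.09. None passed, and 3 and 8 had an unadjusted p under 0.05, or 4.69% and 16.3%, against 7.58% of all genes. Without the 5 mice, 47 of 64 and 29 of 49 were above 0, with medians of 0.21 and 0.22, against 53.1% of all genes and a median of 0.03, and 1 and 2 had an unadjusted p under 0.05. Cdc7, the kinase that fires replication origins, stood at 1.17 (SE 0.31, adjusted p = 0.573), and at 1.45 (SE 0.38, adjusted p = 0.566) without the 5 mice. It was near the floor, at 1.00 to 4.40 CPM with a median of 1.81 CPM, and the second value rests on 2 wheel clodronate mice.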

How the data were processed

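The submitters' processing notes name STAR 2.5.3a and the GRCm38 build. The deposited values are a normalized signal that the authors had set to CPM relative to all reads of a library, unmapped and multimapping reads included, with values below 1 raised to 1. Rows that name no gene held 35.4% to 42.6% of the reads and were left out. Each value above the floor was a whole number of reads (tolerance 0.1 reads, 100% of values), but reads under the floor are lost, so no count test was run. The 3′ libraries held 13256467 to 20484578 reads, and 73.4% to 76.0% of genes were at the floor in a library. The number of reads limits precision at low levels, and intervals cover the spread between mice.

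The 15138 genes exceeding the floor in 5 or more mice entered limma (version 3.58.1, R 4.3.3) as log2(CPM + 1), with means for the 4 groups, a variance trend and Benjamini-Hochberg adjustment over all genes. A fold change on this scale understates that of low genes. Tables were handled with Python 3.11.15, numpy 2.4.6 and pandas 2.3.3, and transcript ends were compared with BLAST 2.17.0. In data simulated for wheel against control with PBS, over 15138 genes, a log2 change of 1.5 given to 200 genes was recovered in 97.5% of them, and a log2 change of 1 in 55.0%. The changed genes were drawn from those with a mean above 5 CPM. Every gene was simulated with the same dispersion and independently of the others. These shares hold for that setting and not for genes near the floor. They do not hold at the spread of the mitotic genes (median SD 1.00, against 0.46 over all genes tested), for which recovery was not simulated.

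The 35 genes and all lists were chosen with earlier results of these data known. Of the mitotic genes, differences are printed for any past the threshold, for the 2 with the largest differences above 0 and the 2 below 0 in the comparisons within a liposome or activity (only Aurkb was above 0 for clodronate in control mice), and for the highest and lowest in the averaged comparisons and the interaction, and of other genes, the 10 most like their mean are named. Other differences printed, such as those of Top2a with PBS, Cdkn3, Mcm5, Pold2, Foxm1 and Cdc7, were chosen after their values were seen. The promoters printed were limited to stretches outside annotated exons, in place of those of the genes with the highest level. Alternatives were other pseudocounts (0.1, 5 and none), filters, scalings, no variance trend, only the groups compared, a replicate block, and leaving out mice. Leaving out 5 mice for the other gene lists, Cdc7 and Cdkn2b was chosen after seeing the data. Replicate numbers belong to different mice in each group.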

Additional observations from a re-analysis of the deposited data

Results flagged for a closer look

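Within groups of 5 or 6 mice, 190 groups of values were searched for a highest or lowest mouse standing apart from the rest by Dixon's criterion. Chance alone would mark about 1 in 20 groups, or 9.5 of these, if values were independent and not held at a floor. In all, 23 were marked, 16 of them for single mitotic genes. Many values sit at the floor and the genes varied together, so 23 beside 9.5 cannot show an excess over chance. In 6 of the 16 every other mouse in its group sat at the floor, where any value above it stands apart. Values are log2(CPM + 1), where the floor is 1.

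Wheel PBS mouse 4, the mouse with the highest summed level, stood above its group for Aurka at 3.15, Ndc80 at 3.32, Nuf2 at 2.45 and Shcbp1 at 2.05. Control PBS mouse 5, the lowest, stood below its group for Ccnb1 and Plk1, both at the floor value of 1.00, and it had 12 genes above the floor. Wheel clodronate mouse 3 stood above its group for Mki67 at 4.21, Kif4 at 1.47 and Shcbp1 at 1.95. Other high values were those of Cdkn3 in wheel PBS mouse 3 (1.67) and control clodronate mouse 2 (2.31), Shcbp1 in control clodronate mouse 5 (2.06), Psrc1 in control PBS mouse 4 (2.78) and control clodronate mouse 3 (1.38), and Cks2 in control PBS mouse 2 (1.11) and control clodronate mouse 3 (1.03).

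Among the other lists, the mean of the lymphocyte markers stood apart in control PBS mouse 2 (4.33) and wheel PBS mouse 3 (4.60), as did that of the germinal centre markers (2.81 and 3.04). The mean of the macrophage markers was low in wheel PBS mouse 5 (3.67), and that of the erythroid markers stood apart in wheel clodronate mouse 1 (5.44).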

How the results depend on the processing

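No mitotic gene passed the adjusted threshold under any alternative or without any single mouse (0 of 154 fits that left out 1 mouse). Reads under the floor of 1 CPM are lost, so differences of low genes such as Nuf2 or Kif4 are limited by depth. Single mitotic genes were followed only where they had the highest or lowest differences of a comparison, which favours a kept direction. Of 216 such values under alternatives, 214 kept their direction. The others were Top2a for wheel against control with clodronate, -0.22 without the 5 mice with high lymphocyte markers, and Aurkb for clodronate against PBS in control mice, -0.00805 with no pseudocount. Without single mice, 8 of 462 values changed sign: Anln for wheel against control with PBS ran from -0.19 to 0.42, Top2a for wheel against control with clodronate from -0.0028 to 1.03, and Aurkb for clodronate against PBS in control mice from -0.21 to 0.27. The median over the mitotic genes ran, without single mice, from -0.90 to -0.37 for wheel against control with PBS and from -0.16 to 0.42 with clodronate. With upper-quartile scaling it was -0.44 and 0.12. Without the 5 mice the median turned from 0.13 to -0.41 for wheel against control with clodronate. For clodronate against PBS in wheel mice it turned from 0.17 to -0.25.

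The counts over all genes moved more, and the cause was not tested. For wheel against control with clodronate, 1 gene passed, against 3 with no filter (all genes above the floor in any mouse), 0 with a mean level of 5 CPM or more, 0 with only the groups compared and 12 without the 5 mice. For clodronate against PBS in wheel mice, 1 passed, against 3 with a pseudocount of 5, 4 with no filter, 0 with a mean level of 5 CPM or more, 3 with upper-quartile scaling, 2 with scaling to reads assigned to genes, 2 with no variance trend, 0 with only the groups compared and 14 without the 5 mice. For the mean clodronate effect, 31 passed, against 54, 12, 15, 20 and 0 with a mean level of 5 CPM or more, upper-quartile scaling, scaling to assigned reads, no variance trend and without the 5 mice. With no filter, 2 passed for the mean wheel effect and 2 for the interaction, against 0. Without single mice the counts ran from 0 to 236 (highest without wheel clodronate mouse 2) for wheel against control with clodronate, 0 to 38 (without control clodronate mouse 1) for clodronate in control mice, 0 to 51 (without wheel clodronate mouse 2) for clodronate in wheel mice and 9 to 146 (lowest without control clodronate mouse 3, highest without control clodronate mouse 1) for the mean clodronate effect.

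Equal replicate numbers belong to different mice, and no comparison had every pair's deviations correlated over 0.1, so the numbers were not taken to pair mice. The mean correlation was -0.08 for wheel against control with PBS (1 of 6 pairs over 0.1), 0.18 with clodronate (3 of 5, up to 0.52), 0.10 for clodronate in control mice (2 of 5) and 0.13 in wheel mice (4 of 5, up to 0.40). With the number as a replicate block, 0 genes passed for wheel against control with clodronate, 0 for clodronate in wheel mice and 11 for the mean clodronate effect.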

Other observations

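A further list held genes that let a cell enter the cycle and genes that hold it back. In both kinds, correlations with the mitotic genes over the 22 mice took both signs. Of 42 such genes, 15 had a correlation above 0.5 with the mean of the mitotic genes, with a median of 0.31, against 8.60% of all other genes and a median of 0.04, and values came from the same libraries. Cdk6, the G1 kinase, stood at 0.89, the repressor E2f8 at 0.87, cyclin E2 (Ccne2) at 0.85 and Myc at 0.75. The inhibitor Cdkn2c (p18) stood at -0.70, Cdkn1c (p57) at -0.64 and the retinoblastoma gene Rb1 at -0.55, while the inhibitor Cdkn1b (p27), at 0.02, and cyclin D2 (Ccnd2), at -0.10, did not follow. Cdkn1a (p21), an inhibitor that p53 switches on, was at 0.63, with levels of 11.2 to 197 CPM. Among the others, cyclin D3 (Ccnd3) stood at -0.51, Rbl1, of the family of Rb1, at 0.60 and the checkpoint kinase Chek1 at 0.68. The genes were picked here after their correlations were seen.

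In the comparisons, none of the 42 passed the adjusted threshold. For wheel against control with PBS liposomes, 34 were lower, with a median log2 difference of -0.18, against 63.8% of all genes lower and a median of -0.08. Of the 42, 4 had an unadjusted p under 0.05, or 9.52%, against 4.91% of all genes. The lowest was Cdkn2b (p15), a gene with a median of 2.28 CPM, at -1.33 (SE 0.27, limma, unadjusted p = 6.7e-05, adjusted p = 0.961). Its difference with clodronate liposomes was 0.02 (SE 0.30, adjusted p = 0.994), and the interaction was 1.35 (SE 0.41, adjusted p = 0.591), or 1.79 (SE 0.43, adjusted p = 0.460) without the 5 mice with high lymphocyte markers. The last value rests on 2 wheel clodronate mice.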
